A study of Rattus norvegicus with 4 samples.

Results

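Transcripts of the protein kinases and of the phosphatase calcineurin that carry growth signals in heart muscle were compared between cultured rat heart muscle cells on uncoated dishes and on dishes coated with fibronectin, a protein of the extracellular matrix. Genes were chosen by their symbol in the array's annotation, which had to start with Mapk, Map2k, Map3k, Prkc, Prka, Camk, Akt, Pik3, Ppp3 or Rps6k. This gave 90 genes with 128 probe sets, out of 10411 named genes and 15866 probe sets. Where a gene had several probe sets, the one with the highest mean log2 signal over the 4 arrays stood for it. Further tested ones are given beside it, as are some of the dim ones that differ from it. The cells were ventricular myocytes taken from neonatal rats and grown in primary culture. Each of the 2 groups had 2 arrays of total RNA: control replicates 1 and 2 from uncoated plates and fibronectin replicates 1 and 2 from coated ones. Both groups spent 24 h with 10% serum and then 48 h without serum. The labels name no strain and no age beyond neonatal, and do not state if replicate arrays stem from different cultures. The p-values below therefore rest on a spread between arrays that may be technical alone.

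These genes belong to the relays that couple integrins, stretch and growth factor or G protein-coupled receptors to the growth of the heart cell. In a MAP kinase cascade, a MAP3K phosphorylates a MAP2K, which phosphorylates a MAP kinase: ERK, JNK or p38. PI3-kinase makes the lipid signal that recruits AKT, which acts through mTOR and S6 kinase on protein synthesis. Calcium bound to calmodulin switches on calcineurin, which dephosphorylates NFAT transcription factors, and the CaM kinases, while protein kinase C answers to diacylglycerol and protein kinase A to cyclic AMP. These proteins are switched mainly by phosphorylation and calcium, whereas an array measures only their mRNA.

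Values below are log2 signals after quantile normalization, raised where needed to a floor of 4.55, which stands for signals too dim to order. They were compared within a probe set only, since probe sets differ in sensitivity. Of 11 listed myocyte markers, 10 were in the annotation and all 10 were tested. They were bright except Ryr2, at 7.63 and 6.81 on control replicates 1 and 2. Myl2, the ventricular myosin light chain, read 14.03 and 13.79 on the controls and 13.77 and 14.28 on fibronectin replicates 1 and 2. Of the 10, 4 were higher without overlap and 0 lower, beside 20.6% and 17.2% of all tested genes. Their median difference was 0.33, beside 0.02 for all genes, and Nppa differed most, by 1.48 (SE 0.42). Their summed normalized intensity was 73214 and 60207 on the controls and 78185 and 76762 on fibronectin. Fibronectin replicate 2 stood apart. Over the 61 tested kinase and calcineurin genes, which are not independent replicates, its log2 signals correlated with those of the other arrays at r = 0.704 to 0.754, while the other pairs lay between 0.832 and 0.895. Markers of fibroblasts, a cell type that can accompany myocytes in such cultures, had a lower mean on fibronectin for 10 of 10 listed genes. Of the 10, 6 lay below both controls on both coated arrays, beside 17.2% of all tested genes, and the rest overlapped. The summed normalized intensity of the 10 was 32570 and 48842 on the controls and 18683 and 30511 on fibronectin, and none was at the floor on all arrays. The summed intensity of 10 leukocyte markers was 1543 and 1959 on the controls and 1041 and 1498 on fibronectin, with none at the floor on all arrays. The brightest, Lyz2, differed by -0.54 (SE 0.40) with overlap. The leukocyte markers did not move as a set. Of the 6 tested, 4 had a negative difference, 2 of them without overlap (beside 17.2% of all tested genes), and 2 a positive one. Among the dim ones, Ptprc, C1qb and Cd14 had higher means on fibronectin and Tyrobp a lower one. Fewer cells of a type and less RNA per cell cannot be told apart in such samples. The ratio of 3' to 5' signal, a measure of RNA or labelling quality, was 1.46 and 1.40 on the controls and 13.0 and 6.29 on fibronectin for beta-actin, and 1.64, 1.15, 6.02 and 3.52 in the same order for Gapdh. For hexokinase it was 3.77, 4.12, 3.11 and 7.0, so that fibronectin replicate 1 lay below both controls there. The part of these differences in the results below was not tested.

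The comparison asked whether transcripts of this signalling machinery differ in myocytes on fibronectin, in a study whose title concerns hypertrophy. Among the tested genes, differences of at least 2-fold without overlap were mostly lower values on fibronectin, for upstream kinases of the stress-activated cascades, Map3k12, Map3k1 and Map3k3, for Akt2, for the calcineurin subunit Ppp3r1 and for the JNK gene Mapk9. These were 2.38-fold to 3.30-fold lower. Mapk4, an atypical MAP kinase, was the 1 tested gene at least 2-fold higher without overlap, by 3.0-fold. Of the 90 genes, 61 were bright enough to test and 29 were not. No tested member passed limma's test at a Benjamini-Hochberg adjusted p of 0.05, where 0% of all 7101 tested genes passed, and the lowest adjusted p among members was 0.594. At an unadjusted p under 0.05 in limma there were 5 members, all lower on fibronectin (8.20% of 61), beside 2.65% of all genes lower and 3.03% higher.

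By size and overlap, 6 members (9.84% of 61) had a mean at least 1 lower on the log2 scale on fibronectin, with both coated arrays below both controls, beside 4.03% of all tested genes. In the other direction there was 1 member (1.64%), beside 3.55% of all tested genes. At any size, 15 members lay below both controls (24.6%, beside 17.2% of all genes) and 8 above both (13.1%, beside 20.6%). The remaining 38 overlapped. The differences ran from -1.72 to 1.58 with a median of -0.08, beside a median of 0.02 for all genes, and 36 of the 61 were smaller than their standard error. The sign of the members' median was not stable, being 0.06 on the deposited scale, where all genes had a median of 0.09. Leaving out 1 array gave 6 to 13 lower members (9.84% to 21.3%), beside 3.55% to 14.2% of all genes. The 13 came without fibronectin replicate 1, where 14.2% of all genes met the same rule. Without control replicate 2 there were 10, beside 6.14% of all genes. Higher members numbered 2 to 4 with an array left out (3.28% to 6.56%), beside 4.24% to 9.29% of all genes. Without fibronectin replicate 1, 4 members passed limma's Benjamini-Hochberg threshold, namely Akt2, Map3k1, Map3k7 and Ppp3r1, along with 210 of 7101 genes in all, in a fit that assumes the lone fibronectin array varies like the controls. With any other array left out no member passed in limma, and 2 to 5 members had an unadjusted p under 0.05.

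**Figure D1:**
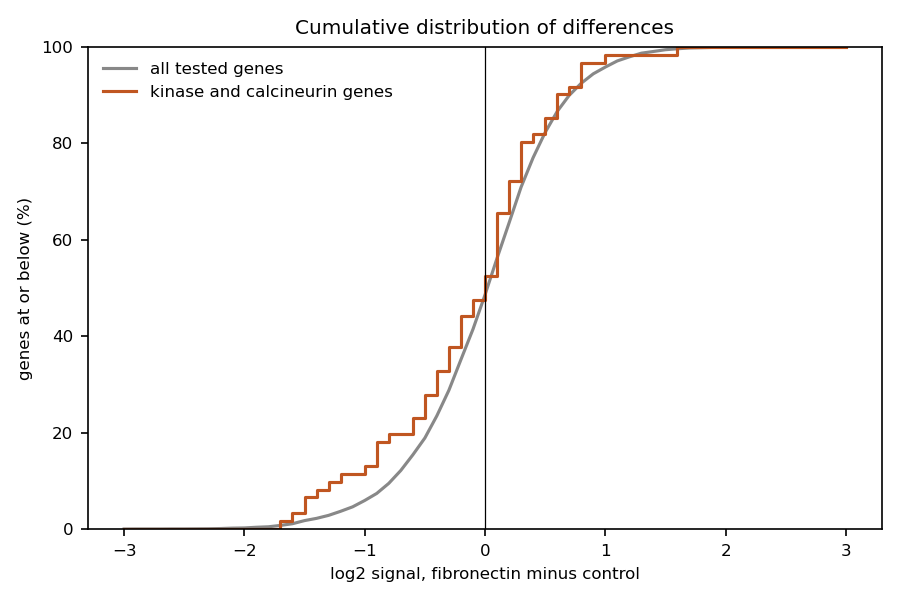
Cumulative share of genes (vertical axis, percent) at or below each log2 difference, fibronectin minus control (horizontal axis), for the 61 tested kinase and calcineurin genes and for all 7101 tested genes. The members' curve lies above the other from about -1.7 to 1.2. It reads 13.1% against 5.93% at -1, 52.5% against 48.6% at 0 and 65.6% against 56.2% at 0.1. These shares include genes whose groups overlap.

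The MAP3K family, which opens the stress-activated cascades, held 3 of the 6 members that were lower by size without overlap, a rule that 4.03% of all tested genes met. Map3k12, the dual leucine zipper kinase upstream of JNK, read 9.0 and 10.09 on control replicates 1 and 2 and 7.81 and 7.83 on fibronectin replicates 1 and 2. The fibronectin arrays were nearly equal and lay below both controls, by 1.72 in the mean (SE 0.42), 3.30-fold lower, with limma's Benjamini-Hochberg adjusted p = 0.594. Map3k1, or MEKK1, which activates the JNK branch, read 8.14 and 8.88 on the controls and 7.37 and 6.42 on fibronectin. Again both coated arrays were below both controls, with a difference of -1.61 (SE 0.48), 3.05-fold lower, and limma's Benjamini-Hochberg adjusted p = 0.718. Its second probe set differed by -1.19 (SE 0.85), with fibronectin replicate 2 at the floor and fibronectin replicate 1 between the controls. Map3k3, or MEKK3, which acts upstream of ERK5 and p38, read 7.38 and 7.57 on the controls and 6.74 and 5.70 on fibronectin, a difference of -1.25 (SE 0.55). Its difference was -0.73 without fibronectin replicate 2, which had the lowest value.

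Other MAP3K genes did not separate the groups. Map3k7, or TAK1, a kinase of TGF-beta and cytokine signalling, read 8.46 and 8.08 on the controls, 8.21 on fibronectin replicate 1 and 6.32 on fibronectin replicate 2. Its mean difference of -1.0 (SE 0.62) came from that last array, and without it the difference was -0.06. Map3k11, the mixed-lineage kinase MLK3, differed by 0.29 (SE 0.45) and Map3k20, the stress kinase ZAK, by 0.15 (SE 0.40), both with overlap. Map3k8 and Map3k9 were left out as dim. Over the 6 tested genes the family's median difference was -1.13, the lowest of the 12 groups, and it was -0.45 without fibronectin replicate 2.

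One step down, 1 of 4 tested MAP2K genes lay above both controls and none below, and none passed the test. Of all tested genes, 20.6% lay above both controls and 17.2% below. Map2k3, which activates p38, read 8.71 and 9.29 on the controls and 9.44 and 9.93 on fibronectin. Both coated arrays lay above both controls, by 0.68 in the mean (SE 0.35), 1.61-fold higher (limma, Benjamini-Hochberg adjusted p = 0.762). Map2k2, the ERK kinase MEK2, read 9.50 and 10.12 on the controls and 10.06 and 10.65 on fibronectin, so that the lower coated value fell between the controls. Its partner Map2k1, or MEK1, differed by -0.26 (SE 0.35), and the difference was 0.06 without fibronectin replicate 1. Map2k5, the ERK5 kinase, differed by 0.05 (SE 0.41). Map2k6, the second p38 kinase, was left out as dim, with 1 control at the floor.

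Among the MAP kinases themselves, the JNK genes had lower values on both coated arrays. Mapk9, which encodes JNK2, read 6.64 and 7.49 on the controls and 5.95 and 5.56 on fibronectin. The groups did not overlap and differed by -1.31 (SE 0.62), 2.48-fold lower, with limma's Benjamini-Hochberg adjusted p = 0.762. Mapk8, or JNK1, read 7.60 and 7.76 on the controls and 7.23 and 6.75 on fibronectin, without overlap and with a difference of -0.69 (SE 0.43). Probe sets annotated to more than 1 gene were not used. Mapk9 was dim on fibronectin. It differed by -0.89 without control replicate 2, short of the 2-fold mark, and did not meet the size rule with the stricter filter or the offset.

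The p38 and atypical MAP kinases gave the opposite sign or none. Mapk4, or ERK4, was near the floor on the controls, at 4.79 and 5.67, and read 6.61 and 7.02 on fibronectin. Both coated arrays exceeded both controls, by 1.58 (SE 0.73), 3.0-fold higher on this floored scale, with limma's Benjamini-Hochberg adjusted p = 0.762. So dim a control value leaves the size of this difference uncertain. A stricter filter left the gene out as dim, and with an offset of 50 it no longer met the size rule. Mapk12, the p38 gamma of skeletal and heart muscle, read 5.88 and 6.28 on the controls and 6.54 and 6.57 on fibronectin, a difference of 0.48 (SE 0.61). Mapk14, the main p38 of heart, differed by 0.37 (SE 0.45) and by -0.15 without fibronectin replicate 2. Mapk6, or ERK3, differed by 0.28 (SE 0.40). Mapk7, Mapk11, Mapk13 and Mapk15 were left out as dim.

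Proteins that bind or follow MAP kinases made up a group of 8 genes, 7 of them tested, of which 6 had a negative difference and 3 lay below both controls, beside 48.6% and 17.2% of all tested genes. Mapk1ip1 read 7.23 and 7.18 on the controls and 6.57 and 5.89 on fibronectin, a difference of -0.98 (SE 0.53). Mapkap1, or SIN1, a subunit of mTOR complex 2, differed by only -0.33 (SE 0.46), though its replicates were close, at 7.08 and 7.11 against 6.75 and 6.78. Mapkapk3, a substrate kinase of p38, differed by -0.20 (SE 0.60), also without overlap. The related Mapkapk2, which phosphorylates the small heat shock protein, was the exception in sign at 0.09 (SE 0.33). Mapkapk5, a further kinase of that group, differed by -0.54 (SE 0.70) and Mapk1ip1l by -0.08 (SE 0.63), both with overlap, and the scaffold gene Mapk8ip2 was left out as dim. Mapk8ip1, the JNK scaffold JIP1, gave different answers from its probe sets: the brighter one differed by -0.29 (SE 0.39) with overlap, and the dimmer by -1.48 (SE 0.50) without, from 7.59 and 7.57 to 6.35 and 5.84.

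**Figure D2:**
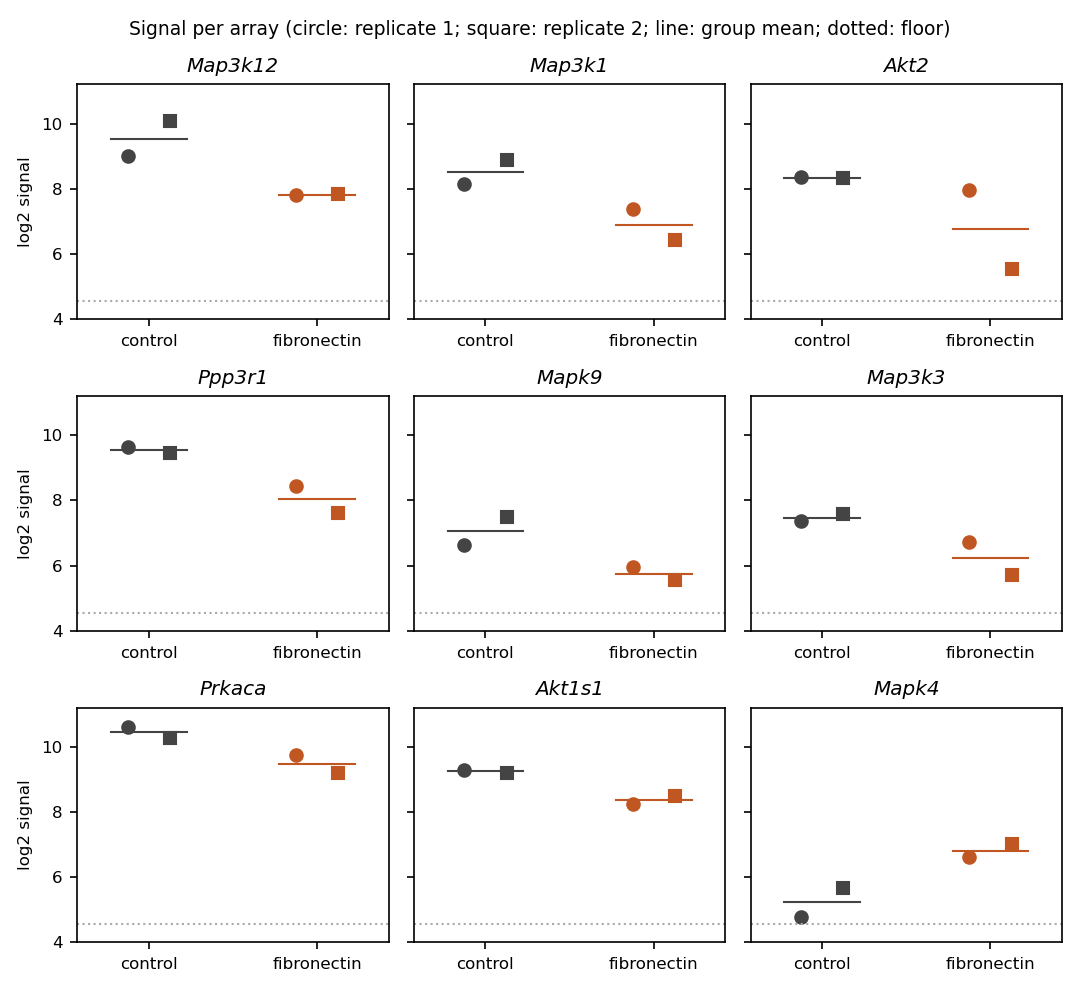
Log2 signal (vertical axis) on each array for the 9 genes that met the size rule or had an unadjusted limma p under 0.05; circles are replicate 1, squares replicate 2, bars the group means and the dotted line the floor of 4.55. For 8 genes both fibronectin arrays lie below both controls, for Mapk4 above, and Akt2 on fibronectin spans 5.56 to 7.96.

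In the calcium branch, the calcineurin subunits gave unlike values. Calcineurin is a dimer of a catalytic A subunit, from Ppp3ca, Ppp3cb or Ppp3cc, and a calcium-binding regulatory B subunit, from Ppp3r1 or Ppp3r2. Ppp3r1 read 9.64 and 9.46 on control replicates 1 and 2 and 8.45 and 7.63 on fibronectin replicates 1 and 2. That is 9.55 ± 0.13 against 8.04 ± 0.58 (SD, n = 2 each), a difference of -1.51 (SE 0.38), 2.85-fold lower, with limma's Benjamini-Hochberg adjusted p = 0.594. With 1 array left out the difference stayed between -1.92 and -1.10. A second Ppp3r1 probe set was at the floor on 3 arrays and gave no order.

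The tested probe sets of the catalytic subunits overlapped between the groups, while 2 dim ones lay below both controls. Ppp3ca, the alpha subunit, read 9.30 and 8.95 on the controls and 9.13 and 8.11 on fibronectin in its brighter probe set, a difference of -0.51 (SE 0.41), or 0.00 without fibronectin replicate 2. In its other tested probe set it differed by 0.12 (SE 0.42). Ppp3cb, the beta subunit linked to cardiac growth, read 8.59 and 8.75 on the controls and 9.03 and 8.41 on fibronectin, a difference of 0.05 (SE 0.36). Its dimmer probe set, left out of the test, read 6.50 and 6.81 on the controls and 4.55 and 4.71 on fibronectin. Ppp3cc, the gamma subunit, was left out as dim as well. It read 6.47 and 6.38 on the controls and the floor on each coated array, which is at least 3.67-fold lower and was untested. Ppp3r2, the testis B subunit, was above the floor on control replicate 2 alone.

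The CaM kinases had higher values for some forms and lower for others. Camk1, CaM kinase I, read 7.50 and 6.98 on the controls and 7.77 and 8.30 on fibronectin, a difference of 0.79 (SE 0.42) without overlap. Camk2b, the beta form of CaM kinase II, read 6.57 and 5.98 on the controls and 6.69 and 7.81 on fibronectin, a difference of 0.97 (SE 0.59). The gap between the groups was narrow, since fibronectin replicate 1 lay just above control replicate 1. Camk2d, the chief cardiac form, read 9.59 and 9.83 on the controls and 9.59 and 8.90 on fibronectin, a difference of -0.46 (SE 0.34) with overlap. A dim probe set of Camk2d, untested, read 5.98 and 7.53 on the controls and 4.97 and the floor on fibronectin. Camk2g differed by -0.28 (SE 0.40), and by 0.05 without control replicate 2. Camkmt, a methyltransferase of calmodulin, and Camkv, a kinase-like protein, differed by -0.10 (SE 0.77) and 0.09 (SE 0.66). The other 7 of 13 genes of this group were left out as dim, among them Camk2a and Camk4, forms typical of neurons, the kinase kinases Camkk1 and Camkk2, and Camk2n1 and Camk2n2, which encode inhibitors of CaM kinase II. Further dim probe sets of Camk4 and Camkv were 2.75-fold and 2.21-fold higher without overlap. A further one of Camk2n1 and 1 of Camk2a were at least 2.60-fold and 1.86-fold lower. The brightest Camk2a probe set read 5.67 and 6.24 on the controls and 5.02 and the floor on fibronectin, 2.24-fold lower without overlap. The remaining Camk2a probe set overlapped, with a higher mean on fibronectin. None of these dim probe sets was tested.

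In the protein kinase C family no difference exceeded 0.25 in size among the 4 tested genes. Prkcd, the delta form, read 9.33 and 8.55 on the controls and 9.35 and 8.59 on fibronectin, a difference of 0.03 (SE 0.41). Prkce, the epsilon form, tied to cardiac growth and protection, differed by 0.25 (SE 0.41), and by -0.13 without fibronectin replicate 2. Prkci, an atypical form of cell polarity, differed by -0.08 (SE 0.56). Its 2 dim probe sets, untested, were lower on both coated arrays than on both controls, by 2.17-fold and by at least 1.64-fold. Prkcsh, which shares the prefix but encodes the beta subunit of glucosidase II in the endoplasmic reticulum, differed by 0.04 (SE 0.30). In their brightest probe sets all 4 overlapped. Prkca, the alpha form, was too dim to test, reading 6.24 and 5.90 on the controls, 6.80 on fibronectin replicate 1 and the floor on fibronectin replicate 2. Prkcb, Prkch, Prkcq and Prkcz were dim as well.

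Within protein kinase A, 2 of 6 tested genes lay below both controls and none above, beside 17.2% and 20.6% of all tested genes. The 2 were 1 catalytic and 1 regulatory subunit. Prkaca, the main catalytic subunit, read 10.61 and 10.27 on the controls and 9.73 and 9.19 on fibronectin. Both coated arrays lay below both controls, with a difference of -0.97 (SE 0.32), 1.96-fold lower, and limma's Benjamini-Hochberg adjusted p = 0.718. Prkacb, the second catalytic subunit, differed by -0.42 (SE 0.56), or 0.43 without fibronectin replicate 2. Prkar2a, a regulatory subunit that anchors the enzyme, read 8.85 and 8.80 on the controls and 8.39 and 8.30 on fibronectin, a small difference of -0.48 (SE 0.32) without overlap. A dim probe set of Prkar2a went the other way, from the floor on both controls to 5.30 and 7.40 on fibronectin, at least 3.49-fold higher and untested. The regulatory Prkar2b and Prkar1b overlapped, at 0.06 (SE 0.36) and 0.53 (SE 0.67). Prkar1a, the type I regulatory subunit, differed by 0.24 (SE 0.39), -0.21 (SE 0.35) and -1.0 (SE 0.33) in its 3 tested probe sets from brightest to dimmest. In the last of these it read 10.41 and 10.29 on the controls and 9.67 and 9.02 on fibronectin, without overlap.

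The AMPK subunits, which sense cellular energy, scattered widely. Prkag1, a nucleotide-binding gamma subunit, read 9.38 and 8.87 on the controls and 8.72 and 8.23 on fibronectin, a difference of -0.65 (SE 0.36) without overlap. Prkag2, the gamma subunit whose mutations cause a cardiomyopathy, read 7.84 and 8.46 on the controls and 9.06 and 8.44 on fibronectin, a difference of 0.60 (SE 0.40) with overlap. The catalytic Prkaa1 and Prkaa2 differed by -0.99 (SE 0.79) and -1.42 (SE 0.84), each because of a single coated array. Prkaa1 read 7.83 on fibronectin replicate 1 and 5.34 on fibronectin replicate 2, and Prkaa2 was at the floor on fibronectin replicate 1 and at 6.54 on fibronectin replicate 2. A dim probe set of Prkaa1, untested, went from the floor on both controls to 4.95 and 5.70 on fibronectin, at least 1.71-fold higher. The beta subunits Prkab1 and Prkab2 differed by 0.24 (SE 0.36) and 0.44 (SE 0.76).

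In the PI3-kinase branch, 2 of 6 tested genes lay above both controls and none below, beside 20.6% and 17.2% of all tested genes. Pik3ca, the catalytic p110 alpha that growth factor receptors use, read 7.31 and 6.46 on the controls and 7.85 and 7.40 on fibronectin, a difference of 0.74 (SE 0.48). Its dimmer probe set went the other way, from 6.32 and 6.47 on the controls to the floor and 5.10 on fibronectin. Pik3r4, or VPS15, the partner of the autophagy lipid kinase VPS34, read 6.93 and 6.81 on the controls and 7.52 and 7.77 on fibronectin, a difference of 0.78 (SE 0.42). The kinase itself, Pik3c3, differed by -0.32 (SE 0.61). Pik3r2, a regulatory subunit, had the widest control spread of the tested members, from 6.11 to 8.72. Its dim probe set read 6.74 and 7.52 on the controls and the floor and 4.83 on fibronectin, 5.42-fold lower and untested. Pik3r3, a regulatory subunit left out as dim, read 5.71 and 4.94 on the controls and 5.90 and 7.40 on fibronectin, 2.51-fold higher without overlap and untested. Pik3ip1, an inhibitor of PI3-kinase, had equal group means of 8.93. Pik3cd, the leukocyte form, differed by -0.58 (SE 0.76). The regulatory subunit Pik3r1 was left out as dim, having read the floor on control replicate 1 and 7.58 on control replicate 2. Pik3ap1 and Pik3c2g were dim as well.

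The AKT kinases and their partners were equal or lower on fibronectin. Akt2, the isoform of insulin action, read 8.36 and 8.32 on the controls, 7.96 on fibronectin replicate 1 and 5.56 on fibronectin replicate 2. Its difference of -1.58 (SE 0.72), 3.0-fold lower, shrank to -0.38 without fibronectin replicate 2, and its second tested probe set differed by -0.47 (SE 0.64) with overlap. A dim further one read 6.42 and 7.22 on the controls and 5.04 and the floor on fibronectin. Akt1s1, or PRAS40, an AKT substrate that restrains mTOR complex 1, read 9.30 and 9.19 on the controls and 8.25 and 8.50 on fibronectin. The difference was -0.87 (SE 0.32), 1.82-fold lower (limma, Benjamini-Hochberg adjusted p = 0.726), and each group was tight. A dim Akt1s1 probe set was at the floor on each coated array, at least 3.37-fold lower and untested. Aktip, an AKT-interacting protein, differed by -0.19 (SE 0.44). Akt1, the isoform of cell growth, read 10.70 and 10.82 on the controls and 10.32 and 11.22 on fibronectin in its brightest probe set, with equal means.

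The other probe sets of Akt1 did not share that result. The next one read 9.34 and 10.19 on the controls and 6.54 and 8.0 on fibronectin, a difference of -2.49 (SE 0.54), and the third differed by -0.47 (SE 0.50), both without overlap. Averaged over its 3 probe sets, Akt1 differed by -0.98. Among the ribosomal S6 kinase relatives, Rps6ka2 (RSK3) differed by 0.13 (SE 0.41), Rps6ka4 (MSK2) by 0.18 (SE 0.40) and Rps6kc1 by -0.38 (SE 0.45). Rps6kb1, the S6 kinase of the mTOR pathway, was left out as dim, reading 7.08 and 5.57 on the controls, 6.32 on fibronectin replicate 1 and the floor on fibronectin replicate 2. Rps6ka6 (RSK4), at the floor on both controls, read 5.36 and 5.50 on fibronectin, at least 1.84-fold higher and untested.

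**Figure D3:**
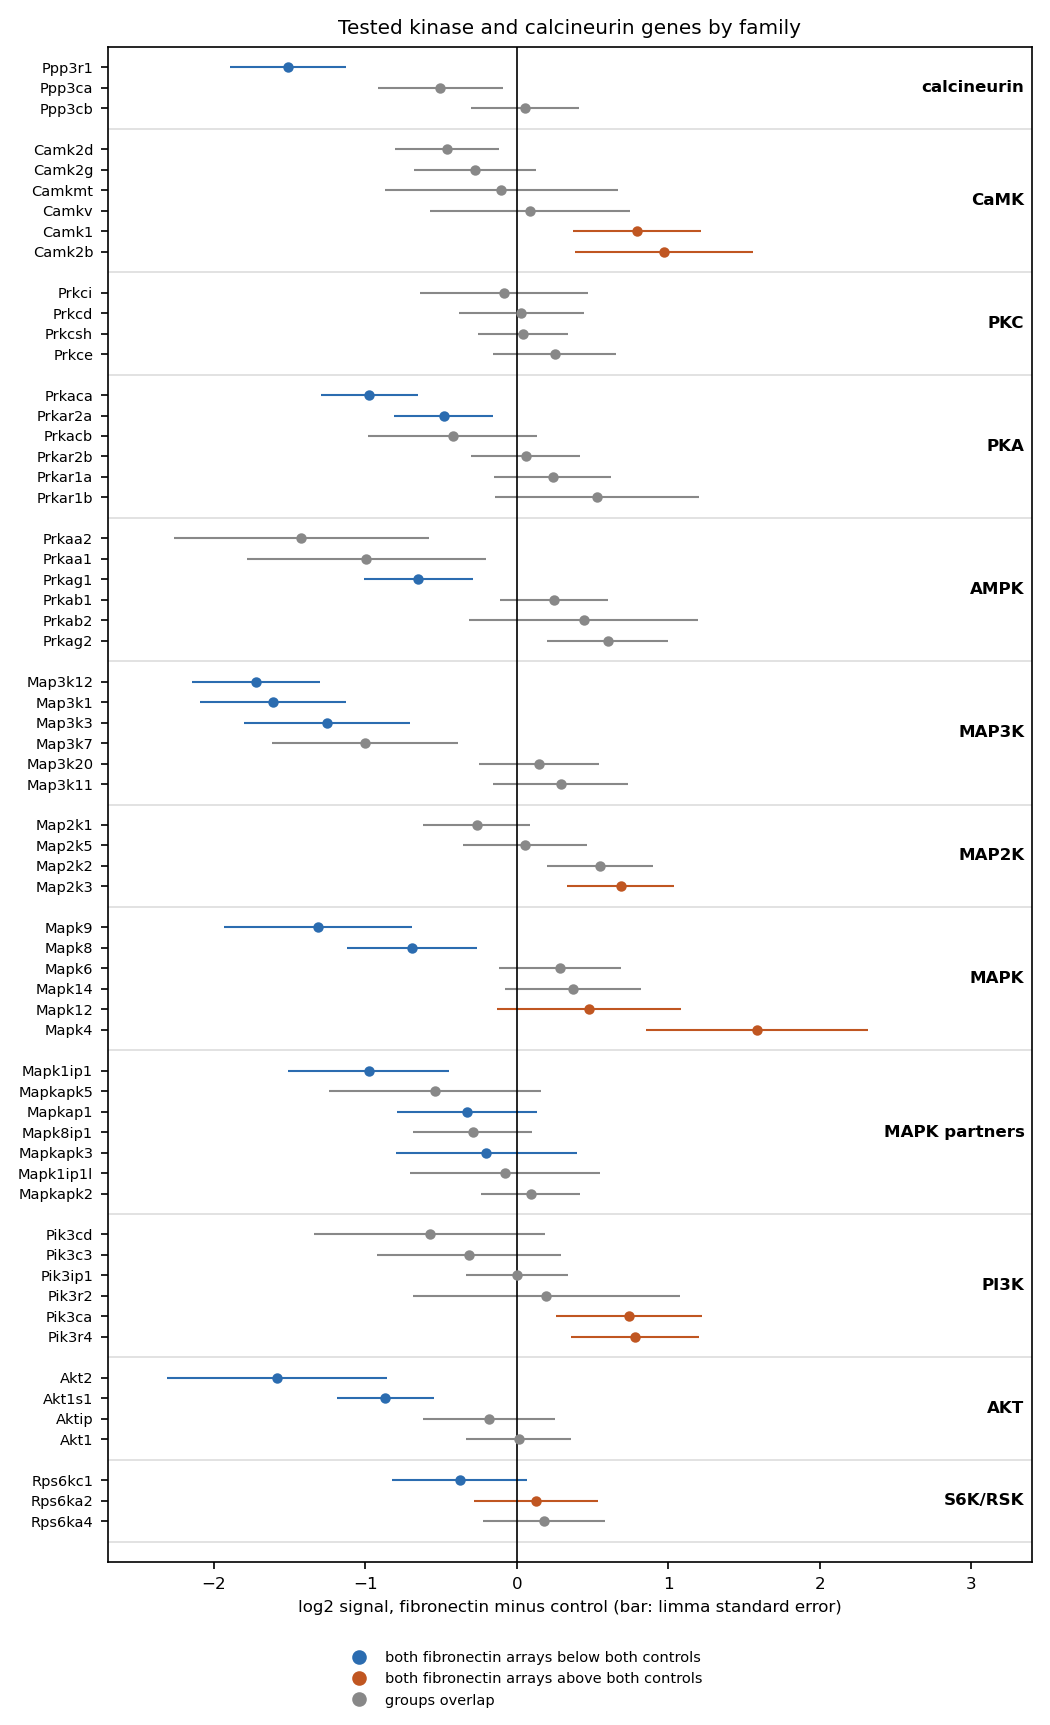
Difference in log2 signal, fibronectin minus control (horizontal axis), with limma's standard error for the brightest probe set of each of the 61 tested genes, grouped by family; blue marks both fibronectin arrays below both controls, orange above both, grey overlap. The leftmost points are Map3k12 at -1.72 and Map3k1 at -1.61, the rightmost is Mapk4 at 1.58, and the protein kinase C genes lie within 0.25 of 0.

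How far a gene's probe sets spoke alike was itself a result. Of the 90 genes, 29 had 2 or 3 probe sets. Among their 38 further probe sets, 8 were bright enough to test, and these had a median difference of -0.74, where 3 were at least 1 lower on fibronectin without overlap (18.1% of such further probe sets of all genes were). For all genes the 970 further tested probe sets had a median of -0.32, beside 0.02 for the brightest ones, so the shift of secondary probe sets to lower values was not limited to these genes. Tested probe sets lay more than 1 apart for 4 members, by 2.50 for Akt1, 1.24 for Prkar1a, 1.19 for Mapk8ip1 and 1.11 for Akt2. With dim probe sets included, whose differences were not tested, 19 members had probe sets more than 1 apart. Of the 30 further probe sets left out as dim, 12 were lower on both coated arrays than on both controls (40%) and 4 higher (13.3%), beside 12.3% and 8.77% of the 1402 such probe sets of all genes. At the floor were 43.3% on both fibronectin arrays and 30% on both controls, beside 32.2% and 40.6% for all genes. None of these dim differences was tested. The arrays with these lower values were also those whose beta-actin 3' to 5' ratio was 13.0 and 6.29, where the controls had 1.46 and 1.40, and the part of that ratio was not tested.

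**Figure D4:**
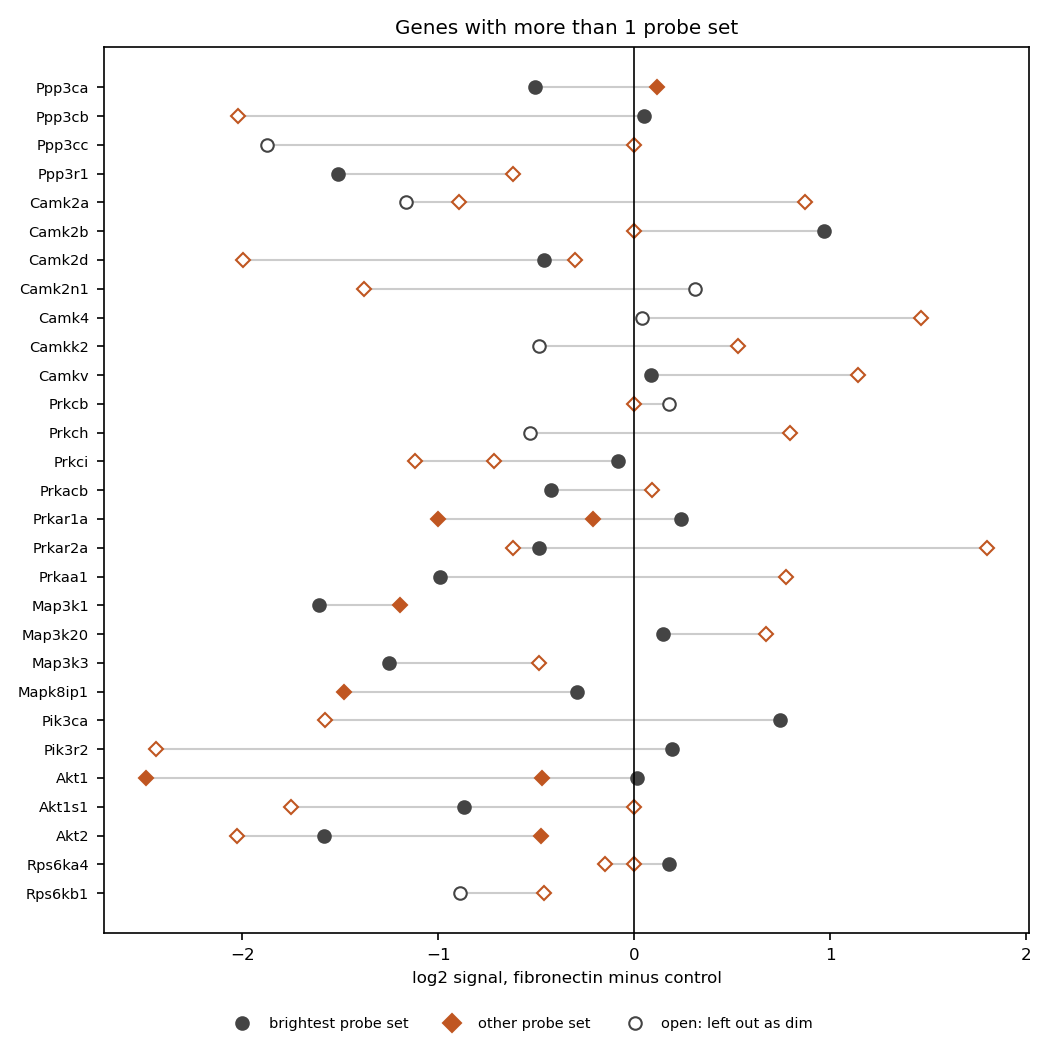
Difference in log2 signal, fibronectin minus control (horizontal axis), for every probe set of the 29 genes with 2 or 3 of them; circles are the brightest probe set, diamonds the others, open symbols those left out as dim, and grey lines join a gene's probe sets. Akt1 shows the widest spread among tested ones, from -2.49 to 0.01.

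Of the 29 dim genes, 24 were at the floor on at least 1 array. Camk1g, a brain form of CaM kinase I, and Pik3r6, a regulatory subunit of the PI3-kinase of leukocytes, were there on all 4. Among the 61 tested genes, Prkaa2 alone had a value at the floor, on fibronectin replicate 1. Among the dim genes, 9 were at the floor on 1 array and 5 on none, so the filter also took out genes with an order between arrays, left untested. The counts of tested genes above do not cover all 90 genes.

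Genes of the same pathways outside these families were taken from 4 lists. None of their tested members passed limma's Benjamini-Hochberg threshold, where 0% of all tested probe sets did. At an unadjusted limma p under 0.05, 2 genes were higher and 5 lower over the lists, which held 13, 17, 17 and 15 tested genes. Of all tested genes, 3.03% were higher and 2.65% lower at that level. Counts without overlap below stand beside 20.6% of all tested genes higher and 17.2% lower, and medians beside 0.02. Around calcineurin and NFAT, 14 of 22 listed genes were annotated and 13 tested, of which 4 were higher without overlap and 2 lower, with a median difference of 0.04. Nfatc4, an NFAT factor that calcineurin sends to the nucleus in heart muscle, read 8.81 and 9.08 on the controls and 7.68 and 8.10 on fibronectin, a difference of -1.06 (SE 0.35). Rcan1, an inhibitor of calcineurin and itself a target of NFAT, read 8.73 and 8.55 on the controls and 7.88 and 8.28 on fibronectin, a difference of -0.56 (SE 0.35). On the other side stood Myoz2, the Z-disc protein calsarcin that tethers calcineurin, with a difference of 0.71 (SE 0.30), and Cabin1, a calcineurin-binding inhibitor, at 0.41 (SE 0.40).

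Of 30 listed genes of Gq, Ras and MAP kinase signalling, 23 were annotated and 17 tested, of which 2 were higher without overlap and 3 lower, with a median of -0.03. Src, the tyrosine kinase that acts with integrins, read 7.25 and 6.94 on the controls and 8.20 and 8.49 on fibronectin in its brightest probe set, a difference of 1.25 (SE 0.39). Its other tested probe set differed by -0.43 (SE 0.42), with both coated arrays below both controls. Ptk2, the focal adhesion kinase that integrins activate, differed by 0.45 (SE 0.39) without overlap. Araf, a kinase of the Raf family, gave -1.13 (SE 0.47) in the bright probe set and 0.90 (SE 0.79) in the dim one that was tested. Cdc42, a small GTPase of the cytoskeleton, differed by -0.48 (SE 0.28) and -0.37 (SE 0.30) in its probe sets.

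Of 20 listed genes between PI3-kinase and mTOR, 19 were annotated and 17 tested, of which 2 were higher without overlap and 5 lower, with a median of -0.12. Gsk3b, a kinase that AKT inhibits and that opposes hypertrophy, read 5.71 and 5.44 on the controls and 6.98 and 6.93 on fibronectin, a difference of 1.38 (SE 0.62) from dim control values. Foxo3, a transcription factor that AKT excludes from the nucleus, differed by 0.62 (SE 0.34). Rptor, the defining subunit of mTOR complex 1, differed by -0.60 (SE 0.44), or by -0.11 without fibronectin replicate 2, and Igf1r, the IGF receptor, by -0.53 (SE 0.39).

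For cyclic AMP signalling, 21 symbols were listed, among them both Grk2 and its older name Adrbk1. Of these, 19 were annotated and 15 tested, of which 0 were higher without overlap and 5 were lower, with a median of -0.37. Akap1, which anchors protein kinase A at mitochondria, read 8.39 and 8.35 on the controls and 5.92 and 7.70 on fibronectin, a difference of -1.56 (SE 0.59). Creb1, the transcription factor that protein kinase A phosphorylates, read 7.29 and 7.94 on the controls and 6.63 and 6.18 on fibronectin, a difference of -1.21 (SE 0.49). Beside these, Prkaca of the same pathway had its difference of -0.97. Akap1 ran from -2.45 to -0.67 when 1 array was left out.

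**Figure D5:**
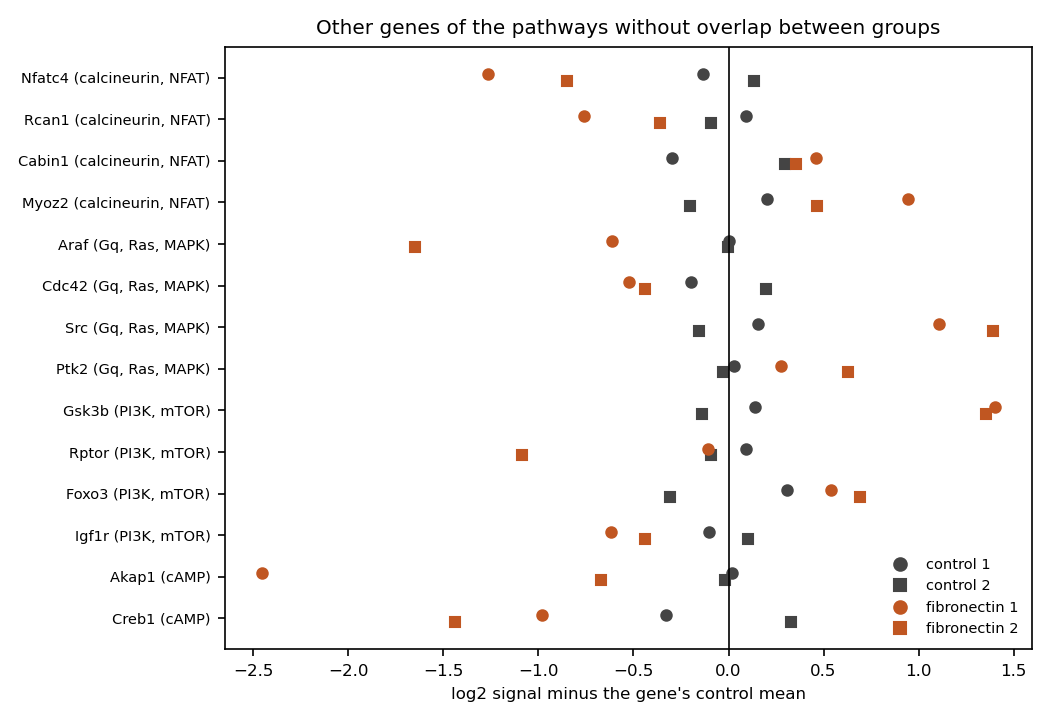
Log2 signal on each array minus the gene's control mean (horizontal axis) for 14 pathway genes outside the families, up to 2 per list and direction with the largest differences without overlap in that list; grey is control, orange fibronectin, circles replicate 1 and squares replicate 2. Src and Gsk3b lie more than 1 above the control mean on both coated arrays, and the Akap1 arrays on fibronectin spread from -2.45 to -0.67 in log2 difference from the control mean.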

How the data were processed

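Signal was measured on 4 Affymetrix rat arrays. The deposited table holds 1 linear intensity per probe set and array. The software and settings with which the authors made it are not given in the sources used here. Its intensities are whole multiples of a step per array, 0.1, 0.233, 0.223 and 1.95 for control replicates 1 and 2 and fibronectin replicates 1 and 2, and medians were 111, 90.9, 110.4 and 97.4. The arrays were therefore quantile normalized, raised to a floor at the 20th percentile (23.4) and converted to log2. Of 15875 probe sets, 9 Affymetrix controls and the dimmest 40% (6347) were left out. The remaining 9519 were tested with limma 3.58.1 in R 4.3.3 (lmFit, eBayes with intensity trend), two-sided, with Benjamini-Hochberg adjustment over all of them. Errors given as SE are limma's moderated standard errors. With 2 arrays against 2, an exact permutation test cannot go below p = 0.333, and the number of arrays limits the precision.

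Gene names came from the platform annotation (12783 probe sets with 1 symbol, 312 with several, 2771 with none), and only single symbols were named. All 90 members matched the GRCr8 gene table by Entrez identifier under the same symbol. No coordinates are given.

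The size rule required a log2 difference of at least 1 without overlap between groups. Named genes were 35 core members found in the annotation, up to 3 per family and direction without overlap by size, members with probe sets over 1 apart, and up to 2 per pathway list and direction. Other members, and some of the dim probe sets that differ from a gene's brightest one, were named to account for the members, after their values were seen. Marker lists for endothelial, smooth muscle and neural or Schwann cells were also summed. Summed intensity on controls and fibronectin was 428, 329, 535 and 225 for endothelial, 3600, 8843, 4072 and 6755 for smooth muscle and 581, 454, 721 and 942 for neural markers, in the array order above. The members and lists were chosen with earlier results of these data known. The test was tested on simulated data. Alternatives are in the closing section.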

Additional observations from a re-analysis of the deposited data

How the results depend on the processing

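By limma's Benjamini-Hochberg threshold, 0 members passed on the deposited scale, with a median shift, without or with a stricter filter of 60%, without a floor, with an offset of 50, with other variance models or at a threshold of 0.10. With the replicate number as a block, 4 of 61 members passed, Map3k1, Map3k12, Ppp3r1 and Prkaca, among 125 of all 7101 tested genes. The labels do not say what a shared number means, deviations of same-numbered arrays correlated at 0.27 over the tested probe sets and -0.10 over the members, and the block moved no difference. With 1 array left out, 6 to 13 members were lower and 2 to 4 higher by the size rule, beside 3.55% to 14.2% and 4.24% to 9.29% of all genes. The members' median difference then ran from -0.20 to -0.10. The number of higher members was 2 without a filter, 2 without a floor, and 0 with the stricter filter or the offset. Of all genes, 4.50%, 3.55%, 2.08% and 0.99% were higher by that rule, in the same order. The members' median was 0.064 on the deposited scale, 0.017 with a median shift, -0.017 without a filter, 0.029 with the stricter filter, -0.00019 without a floor and -0.0085 with the offset, so its sign depends on these settings. Lower members numbered 4 to 8 under these settings (6.56% to 9.84%), beside 1.63% to 4.49% of all genes. Map3k1, Map3k12 and Ppp3r1 met the size rule in 12 of 12 alternatives in which it was counted, leaving out arrays included. For Map3k1 and Ppp3r1 the differences stayed at -1.61 and -1.51 without a filter, without a floor and with the block. These settings could not move them, so not all 12 are separate checks.

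Averaging the probe sets of a gene turned the sign for Akt1 (-0.98) and Prkar1a (-0.32). Leaving out 1 array turned the sign for these genes, with ranges from -1.01 to 0.0023 for Ppp3ca, -0.26 to 0.36 for Ppp3cb, -0.61 to 0.052 for Camk2g, -0.36 to 0.42 for Prkcd, -0.13 to 0.63 for Prkce, -1.28 to 0.43 for Prkacb, -0.18 to 0.65 for Prkar1a, -2.24 to 0.25 for Prkaa1, -0.15 to 0.89 for Mapk14, -0.59 to 0.058 for Map2k1, -0.18 to 0.36 for Mapkapk2, -0.44 to 0.46 for Akt1 and -0.73 to 0.14 for Mapk8ip1. Dim values are coarsest on fibronectin replicate 2, whose median intensity spans 50 steps against 1108, 390 and 494 on the others.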
